A study of Mus musculus with 18 samples.

Results

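Vascular growth factor genes were followed in the testes of hypogonadal (hpg) mice given follicle-stimulating hormone (FSH). The set held 10 genes, namely the ligands Vegfa, Vegfb, Vegfc, Angpt1 and Angpt2 and the receptors Kdr, Flt1, Nrp1, Nrp2 and Tek. They were chosen by name, and every probe set that the platform annotation paired with exactly 1 gene symbol and that symbol in the set was kept. This gave 15 probe sets for all 10 genes, out of 22626 probe sets tested for 12393 genes.

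Whole testes came from 10-week-old hpg males, which lack gonadotrophin-releasing hormone and therefore have very low FSH and luteinising hormone. Treated males received 8 IU of recombinant FSH (Gonal F) in 0.2 ml of phosphate-buffered saline under the skin, repeated every 12 h, for 12 h (4 mice), 24 h (3 mice) or 72 h (4 mice). Testes were taken 1 h after the last dose. The controls were 7 hpg males of the same age that the labels call untreated, so that effects of FSH and of the injections cannot be told apart. Each mouse gave 1 Affymetrix MOE430A array. All groups carry the hpg defect, so no gonadally normal testis is among the samples.

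Vascular endothelial growth factors (VEGFs) are secreted proteins that make endothelial cells divide, migrate and leak. They bind the receptor tyrosine kinases Flt1 and Kdr, with the neuropilins Nrp1 and Nrp2 as co-receptors that also bind semaphorins. Angiopoietins bind a separate endothelial receptor kinase, Tek (also called Tie2), with Angpt1 stabilising vessels and Angpt2 largely opposing it. Testicular vessels run between the tubules and not inside them, and both Leydig and Sertoli cells are known sources of VEGF, while the FSH receptor is on Sertoli cells.

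The arrays formed 2 technical sets, since probe sets for Dap, a bacterial spike-in RNA, averaged 8.00 to 8.92 (log2) on the arrays of 12 h, 72 h and controls 4 to 7 (12 arrays) and 2.74 to 3.30 on those of 24 h and controls 1 to 3 (6 arrays). Each time was therefore compared with the controls of its own set. Array medians were 4.44 to 4.63. Control 6 had the lowest mean correlation with the rest of its group (0.976), followed by 24 h replicate 2 (0.9815). As a check of the tissue, 16 of 17 measured Sertoli cell markers were above the floor defined next, all but Amh.

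Most of these genes were read at or near the floor of the array, where a low value gives only a bound on the transcript. A probe set was called floor-level when the mean of each of the 5 groups (12 h, 24 h, 72 h, controls 1 to 3, controls 4 to 7) was under 4 on the log2 scale. By this rule 7 of the 15 probe sets were floor-level, against 42.3% of all probe sets tested. For 4 genes, Kdr, Flt1, Angpt1 and Angpt2, no probe set stood above it. Vegfa 1420909_at and Vegfc escaped the label through a single group mean each, that of 12 h (4.30) and of controls 4 to 7 (4.04). Only the 3 Nrp1 probe sets, Nrp2, Tek and Vegfb averaged at least 4 over the 18 arrays, and the floor of a probe set need not be the same for all. As a description, the 9 of 18 arrays that lay closest together spanned a median of 0.04 over all floor-level probe sets and 0.25 over all other probe sets. The same width was 0.02 for Vegfb (4.44 to 4.46), 0.06 for Nrp2 (4.34 to 4.40) and 0.08 for Tek (4.12 to 4.20). For Nrp1 it was 0.41, 0.09 and 0.39 from the brightest probe set to the dimmest, so a narrow width also occurred well above 4 and does not by itself mark a floor. For Vegfb 2 arrays lay more than 0.5 below the closest 9, while for Nrp2 and Tek none did.

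**Figure D1:**
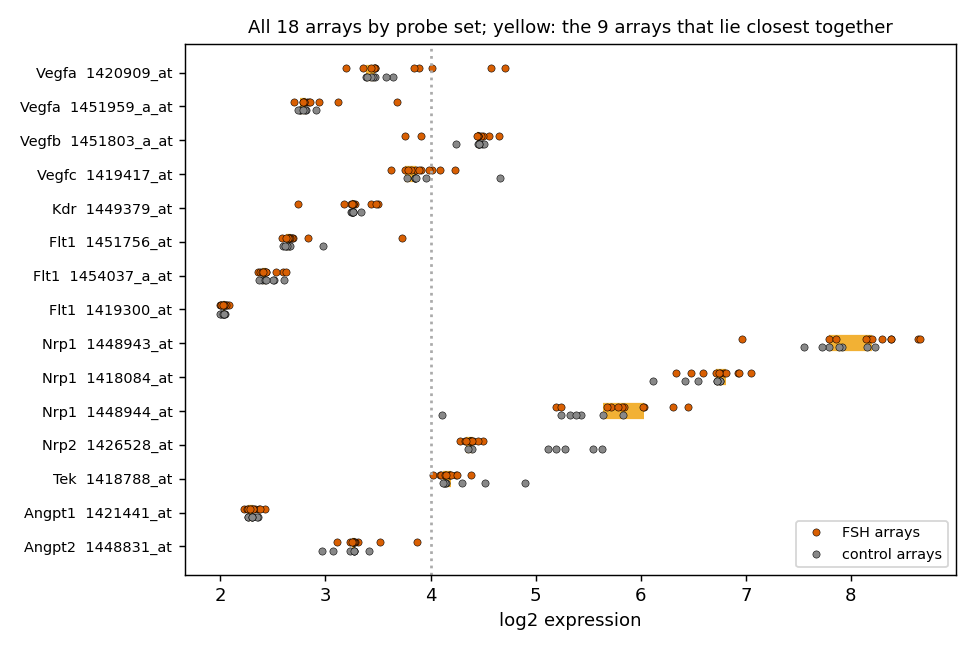
All 18 arrays for each of the 15 probe sets, with log2 expression on the x axis, orange points for FSH arrays, grey points for controls, and a yellow bar over the 9 arrays that lie closest together. The dotted line marks 4. The Nrp1 probe sets together cover 4.11 to 8.66, with the brightest and the dimmest spread most widely. At most others the closest 9 arrays bunch closely, in some cases with single arrays standing off. For Nrp2 the arrays that stand off upwards are 5 controls.

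Vegfa, the principal angiogenic ligand of the family, was the only gene of the 10 that passed the test against the controls, and it did so at 12 h alone. At probe set 1420909_at the 12 h arrays read 4.71, 4.01, 3.89 and 4.57, against 3.43, 3.58, 3.39 and 3.39 in controls 4 to 7. All 4 treated arrays lay above all 4 controls. The mean was 4.30 ± 0.40 at 12 h and 3.45 ± 0.09 in the controls (SD, n = 4 each), a rise of 0.85 ± 0.15 (log2, SE), or 1.80-fold (limma adjusted p = 0.00388, 95% interval 0.52 to 1.18). Because the controls were under 4, the fold may be understated.

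The rise was not seen at the later times. After 24 h the arrays read 3.47, 3.84 and 3.47, against 3.64, 3.47 and 3.45 in controls 1 to 3, and the groups overlapped. After 72 h they read 3.46, 3.43, 3.35 and 3.19, within or below the range of controls 4 to 7. The difference was 0.07 ± 0.18 at 24 h (adjusted p = 0.812). It was -0.09 ± 0.15 at 72 h (adjusted p = 0.921). Set directly against each other on the same technical set, the 72 h arrays were lower than the 12 h arrays by -0.93 ± 0.15, without overlap (limma adjusted p = 0.00476). The control-adjusted difference between 24 h and 12 h was -0.78 ± 0.24 and did not pass (adjusted p = 0.141), with an interval of -1.28 to -0.27.

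Both Vegfa calls rested on values close to the floor. When every reading under 4 was set to 4, a setting chosen after seeing the data, the difference at 12 h was 0.32 (adjusted p = 0.224) and that between 72 h and 12 h was -0.32 (adjusted p = 0.34), and neither was called. No single array decided the 12 h call, which kept an adjusted p of 0.00126 to 0.0165 with any of the 18 arrays left out. A dimmer Vegfa probe set, 1451959_a_at, was floor-level. It read 2.82, 2.79, 3.12 and 2.94 at 12 h, against 2.76, 2.81, 2.74 and 2.79 in controls 4 to 7, and was not called (0.14 ± 0.14, adjusted p = 0.839). Its highest reading was 3.68 in 24 h replicate 2, the same array that was highest of its group at the brighter probe set.

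The listed start windows of Vegfa are shown because this gene carried the only calls. RefSeq (GRCm38.p6) lists a pair of start windows for Vegfa, each from 250 bases before to 50 after a start, and 8 of the 10 genes have at least 1 window. Both Vegfa windows are on the minus strand of chromosome 17, printed 5′ to 3′ along the gene, with matches in capitals to the GC box, the cAMP response element half-site or the core of the hypoxia response element, whose letters follow the sequences, on either strand.
Vegfa, chr17:46032328-46032627: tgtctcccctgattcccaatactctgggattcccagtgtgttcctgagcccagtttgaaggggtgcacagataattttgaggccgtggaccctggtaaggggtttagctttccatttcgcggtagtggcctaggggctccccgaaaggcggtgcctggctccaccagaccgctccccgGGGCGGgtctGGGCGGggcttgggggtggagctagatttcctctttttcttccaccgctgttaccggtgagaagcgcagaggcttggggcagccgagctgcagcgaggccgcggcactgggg
Vegfa, chr17:46025114-46025413: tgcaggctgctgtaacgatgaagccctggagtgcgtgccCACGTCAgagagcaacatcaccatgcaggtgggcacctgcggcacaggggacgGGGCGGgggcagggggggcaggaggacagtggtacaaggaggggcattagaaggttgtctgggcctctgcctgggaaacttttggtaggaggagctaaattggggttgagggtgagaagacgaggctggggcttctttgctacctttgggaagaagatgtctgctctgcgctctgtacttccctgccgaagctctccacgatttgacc

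GGGCGG, the GC box that Sp1-type factors bind, occurs in the upper window at -72 and -62 from the start. The lower window holds 1 at -158 from its own start. The GC box was present in 7 of the 8 genes with a window, all but Tek. Counted by window it was in 8 of the 9 windows of these genes, against 35.7% of all 32851 windows in the table. TGACG, the half-site of the cAMP response element, and ACGTG, the core of the hypoxia response element, overlap each other on the reverse strand in the lower window. Neither has a match in the upper one. Because the gene runs on the minus strand, the lower window lies downstream of the upper start. Its matches are thus not upstream of that start. Among the 8 genes, TGACG occurred in Vegfa and Flt1 and ACGTG in Vegfa alone. Counted by window these were 2 and 1 of the 9, against 20.8% and 19.6% of all windows. For Vegfa both counts rest on the lower window only. AGGTCA, a nuclear receptor half-site, occurred in Vegfb and Nrp1, in 2 of the 9 windows, against 16.3% of all windows. These matches describe letters and not bound sites.

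Vegfb, a ligand of Flt1 with little angiogenic activity of its own, read 4.46, 4.56, 4.65 and 4.50 at 12 h and 4.46, 4.45, 4.45 and 4.44 at 72 h, against 4.51, 4.46, 4.46 and 4.46 in controls 4 to 7. At 24 h it read 4.48, 3.76 and 3.90, against 4.49, 4.46 and 4.24 in controls 1 to 3. So 2 of the 3 arrays at 24 h lay below all the controls while replicate 1 lay among them. The difference at 24 h was -0.35 ± 0.13 and did not pass (adjusted p = 0.0926), but it was called without 24 h replicate 1 (-0.56, adjusted p = 0.000252). Over all alternatives its adjusted p was 0.000252 to 0.428. Without that array the control-adjusted difference between 24 h and 12 h was also called (-0.64, adjusted p = 0.00269), where all arrays gave -0.42 (adjusted p = 0.26).

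Vegfc, the ligand that acts mainly on lymphatic vessels, lay between 3.63 and 4.23 on all 11 FSH arrays and between 3.77 and 4.66 in the 7 controls. The value of 4.66 came from control 5 alone. Its differences were -0.07 ± 0.16 at 12 h, 0.11 ± 0.18 at 24 h and -0.26 ± 0.16 at 72 h, none of them called (adjusted p at least 0.512).

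**Figure D2:**
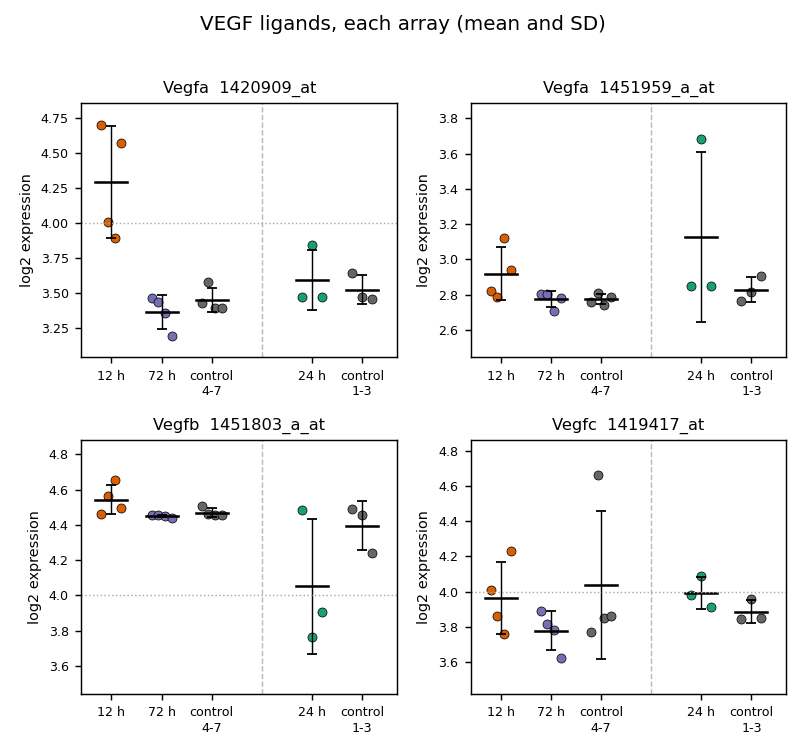
VEGF ligand probe sets, with log2 expression on the y axis, 1 point per array, the group mean as a horizontal bar and the SD as whiskers. Arrays right of the dashed line belong to the other technical set, and the dotted line marks 4. At the Vegfa probe set 1420909_at the 12 h arrays (3.89 to 4.71) stand clear of the 72 h arrays and controls 4 to 7.

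The receptor kinases of VEGF gave no usable level. Kdr, the main signalling receptor of endothelial cells, lay between 2.74 and 3.50 on all arrays, and 9 of them fell between 3.25 and 3.26. Flt1, which binds VEGF tightly and also exists as a soluble decoy, had 3 probe sets, which reached at most 3.73, 2.62 and 2.09 on any array. The reading of 3.73 was from 24 h replicate 3 alone. The differences of Kdr were 0.10 ± 0.10, -0.18 ± 0.12 and 0.02 ± 0.10 at 12, 24 and 72 h, without a call (adjusted p at least 0.306). Such values bound the transcript from above and cannot show whether the receptor changed.

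Nrp1, the VEGF and semaphorin co-receptor, was the best measured gene of the set, and none of its probe sets passed at any time. In whole testis, a change in the number of cells of a type and a change in RNA per cell cannot be told apart. Its 3 probe sets carry the same source accession in the annotation and are not independent measures. The dimmest, 1448944_at, read 6.03, 6.31, 6.02 and 6.45 at 72 h, against 5.33, 5.38, 5.24 and 5.84 in controls 4 to 7, and the groups did not overlap. At 1418084_at the arrays read 6.81, 6.75, 7.05 and 6.94 at 72 h, against 6.73, 6.72, 6.43 and 6.54, again without overlap. At the brightest, 1448943_at, they read 8.14, 8.64, 8.66 and 8.30 at 72 h, against 7.91, 8.23, 7.88 and 7.72, and 1 control exceeded 1 treated array.

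The Nrp1 means at 72 h were higher by 0.75 ± 0.28, 0.28 ± 0.13 and 0.50 ± 0.26, with adjusted p of 0.146, 0.305 and 0.385. The first of these was called in some other settings, with adjusted p of 0.0261 on the 12 arrays of its own technical set, 0.0211 without control 3 and 0.032 against all 7 controls (0.92 there), and over all alternatives its adjusted p was 0.0211 to 0.311. Control 3 read 4.11 at this probe set, far below controls 1 and 2 at 5.43 and 5.64. At 12 h the differences were 0.16 ± 0.28, -0.07 ± 0.13 and 0.11 ± 0.26. At 24 h they were 0.56 ± 0.32, 0.28 ± 0.15 and 0.02 ± 0.30, the last with a single reading of 6.97 in replicate 2 against 8.38 and 8.20 in replicates 1 and 3.

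Nrp2, a co-receptor for VEGF and semaphorins that is prominent on veins and lymphatics, was measured by 1 probe set and lay in a narrow low band on every FSH array. It read 4.40, 4.38, 4.50 and 4.46 at 12 h and 4.39, 4.28, 4.33 and 4.34 at 72 h, against 5.19, 5.28, 4.35 and 5.12 in controls 4 to 7. At 24 h it read 4.39, 4.37 and 4.37, against 5.63, 5.54 and 4.40 in controls 1 to 3. Thus 5 of the 7 controls stood above all 11 FSH arrays, and controls 3 and 6 stood among or next to them.

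None of the Nrp2 differences was called. They were -0.55 ± 0.23 at 12 h (adjusted p = 0.242), -0.81 ± 0.27 at 24 h (adjusted p = 0.0582) and -0.65 ± 0.23 at 72 h (adjusted p = 0.133). The calls varied with the setting. Without control 3, an array that enters the 12 h and 72 h tests only through the shared variance, all 3 comparisons were called, at -0.55, -1.21 and -0.65 (adjusted p = 0.0451, 0.00121 and 0.0175). Without control 6 those of 24 h (-0.81, adjusted p = 0.0294) and 72 h (-0.86, adjusted p = 0.027) were called. On the arrays of its own technical set alone the 72 h difference passed (adjusted p = 0.0441), while those of 12 h (0.0907) and 24 h (0.325) did not. The 24 h difference passed without probe sets of mean under 4 (adjusted p = 0.0364) and did not with the replicate block (0.0804). Against all 7 controls without regard to technical set, Nrp2 was called at 24 h (-0.70, adjusted p = 0.0265) and 72 h (-0.74, adjusted p = 0.0338), and not at 12 h (-0.64, adjusted p = 0.0751). Over all alternatives the adjusted p was 0.0451 to 0.435 at 12 h, 0.00121 to 0.325 at 24 h and 0.0175 to 0.295 at 72 h.

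**Figure D3:**
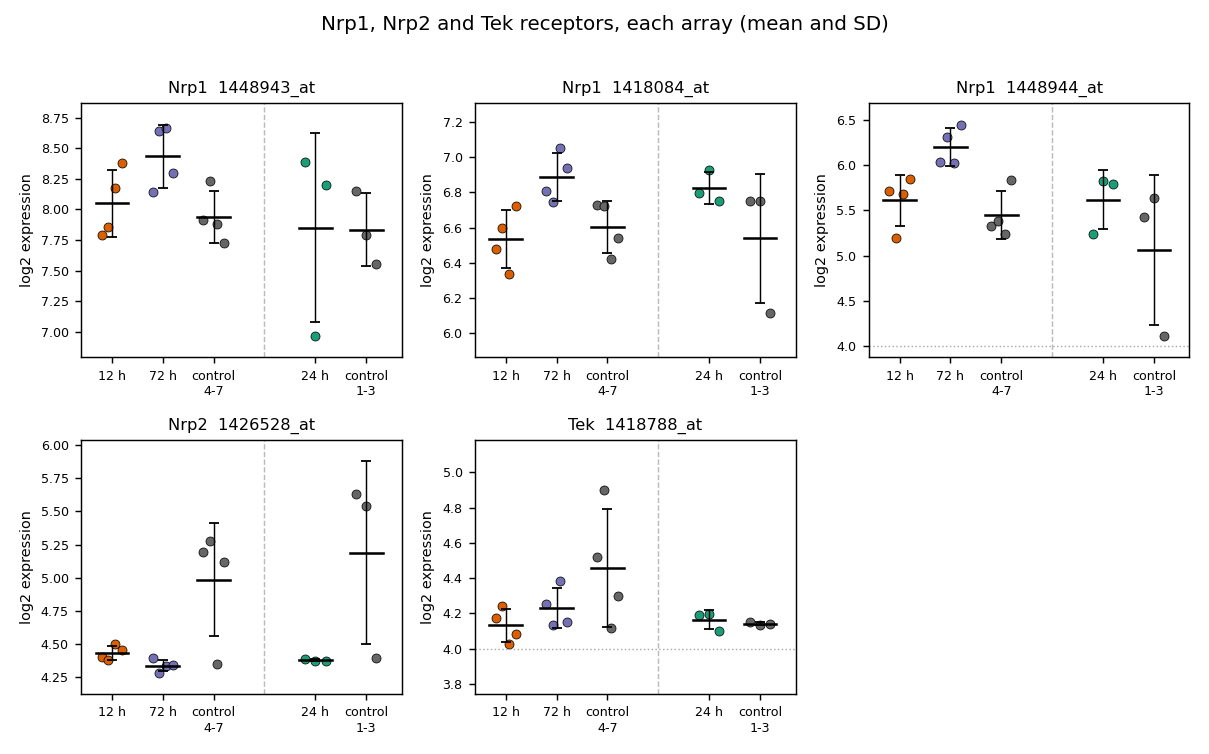
Probe sets of Nrp1, Nrp2 and Tek, with log2 expression on the y axis, 1 point per array, the group mean as a horizontal bar and the SD as whiskers, and the other technical set right of the dashed line. The 72 h arrays are highest on average at all 3 Nrp1 probe sets. For Nrp2 the FSH arrays lie between 4.28 and 4.50 while 5 controls lie between 5.12 and 5.63.

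Tek, the angiopoietin receptor, read 4.17, 4.24, 4.03 and 4.09 at 12 h and 4.25, 4.13, 4.39 and 4.15 at 72 h, against 4.52, 4.90, 4.12 and 4.30 in controls 4 to 7. At 24 h it read 4.19, 4.20 and 4.10, against 4.15, 4.13 and 4.14 in controls 1 to 3. The highest readings were those of controls 5 and 4, and in both technical sets the groups overlapped. The difference was -0.33 ± 0.12 at 12 h (adjusted p = 0.172), 0.02 ± 0.14 at 24 h (adjusted p = 0.936) and -0.23 ± 0.12 at 72 h (adjusted p = 0.403). The difference at 12 h was called without control 6 (-0.44, adjusted p = 0.0345), and its adjusted p was 0.0345 to 0.489 over all alternatives.

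Both angiopoietins were floor-level. Angpt1 lay between 2.23 and 2.42 on all arrays. Angpt2 lay between 2.96 and 3.87, and its highest reading was 12 h replicate 4, where the other arrays of that time read 3.24 to 3.31. Its difference at 12 h was 0.29 ± 0.12 without a call (adjusted p = 0.245), and at 24 and 72 h it was 0.04 ± 0.14 and 0.09 ± 0.12.

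**Figure D4:**
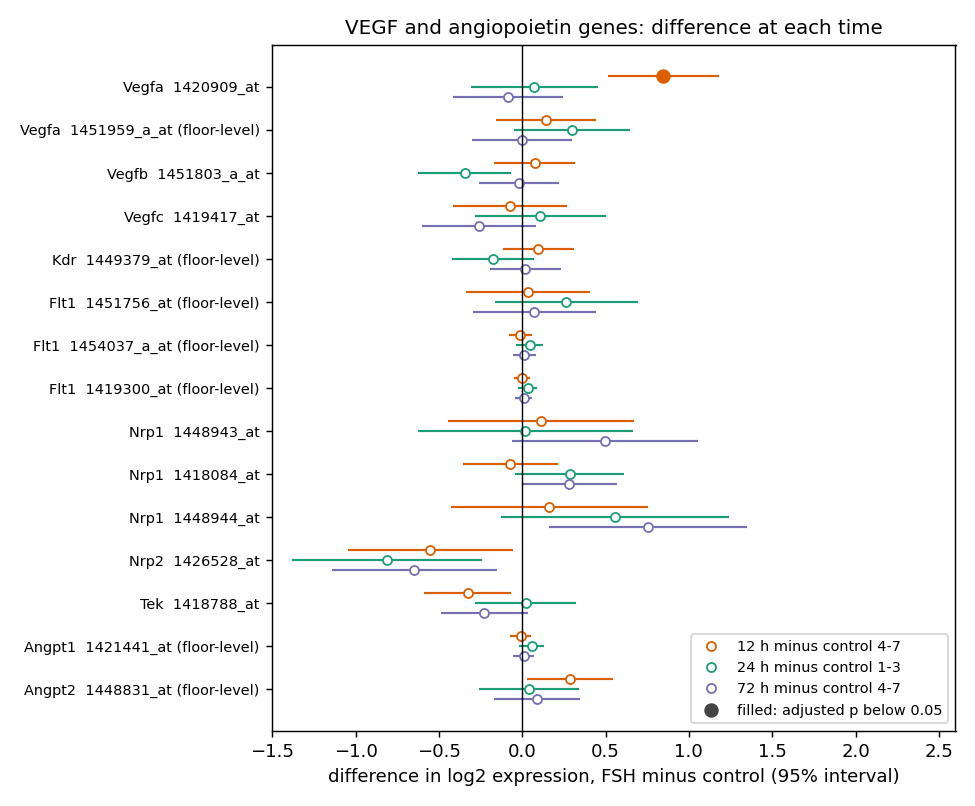
Difference in log2 expression, FSH minus the controls of the same technical set, for the 15 probe sets on the y axis at 12, 24 and 72 h, with 95% intervals as lines. The filled point is the only call, Vegfa 1420909_at at 12 h (0.85), and open points did not pass the test. The Nrp1 points at 72 h lie right of 0 and the Nrp2 points at all times lie left of 0.

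Counted over the set, 1 of 15 probe sets (6.67%) was called at 12 h, against 5.35% of all probe sets tested, so the share was near the background. None was called at 24 h and none at 72 h by limma, where 13.4% and 6.13% of all probe sets were. By direction, the shares of all probe sets called higher were 3.2%, 6.1% and 3.63% at the 3 times, and those called lower were 2.16%, 7.26% and 2.5%. At an unadjusted p under 0.05 the counts were 4, 2 and 2 of 15, against 15.5%, 31.3% and 16.5% of all. Between 72 h and 12 h 1 probe set was called, with 72 h the lower, against 2.36% of all in either direction and 0.999% with 72 h the lower. For the control-adjusted difference between 24 h and 12 h none was called by limma, against 0.875% of all, and 2 had an unadjusted p under 0.05, against 16.5% of all. Groups did not overlap for 1, 3 and 2 of the probe sets at 12, 24 and 72 h, against 10.5%, 36.9% and 12.6% of all, and for 4 between 72 h and 12 h, against 8.44% of all. The median difference of the 15 was 0.03, 0.05 and 0.01 at 12, 24 and 72 h, and that of all probe sets was -0.00, 0.04 and 0.01.

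Of the other genes of these pathways, each read by its brightest probe set, 17 of 28 measured were floor-level, against 42.3% of all probe sets. Against the controls 1, 2 and 3 of the 28 rose at 12, 24 and 72 h by limma and 0 fell. The called shares were 3.57%, 7.14% and 10.7%, against 5.35%, 13.4% and 6.13% of all probe sets. At an unadjusted p under 0.05 the counts were 6, 8 and 5, against 15.5%, 31.3% and 16.5% of all. Median differences of the 28 were 0.05, 0.06 and 0.02. Sema3c, a semaphorin that signals through neuropilins and plexin D1, averaged 5.57 ± 0.34 at 12 h and 5.80 ± 0.22 at 72 h, against 4.93 ± 0.27 in controls 4 to 7 (SD, n = 4 each). It rose by 0.64 ± 0.17 at 12 h and 0.87 ± 0.17 at 72 h (limma adjusted p = 0.0447 and 0.00684). At 24 h it averaged 7.04 ± 0.13, against 6.97 ± 0.21 in controls 1 to 3, a difference of 0.07 ± 0.20. The untreated controls of the 2 technical sets thus differed more at this probe set than any group did from its own controls.

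Also at 72 h, Prkca, a protein kinase C that acts downstream of Kdr, rose by 0.93 ± 0.22 (adjusted p = 0.0202), and Epas1, a hypoxia-inducible factor of endothelium, rose by 0.58 ± 0.16 (adjusted p = 0.0427). Both probe sets were floor-level, at 3.25 ± 0.63 and 3.06 ± 0.23 against 2.32 ± 0.03 and 2.48 ± 0.24 in controls 4 to 7. Adamts1, a protease with antiangiogenic activity, averaged 6.64 ± 0.05 at 12 h and 6.63 ± 0.37 at 72 h, against 5.39 ± 0.87 in controls 4 to 7, and was not called (1.25 and 1.24, adjusted p = 0.0639 and 0.0604). Hif1a, the hypoxia-inducible factor subunit, was bright and not called, at -0.07 ± 0.21, -0.48 ± 0.24 and 0.01 ± 0.21. Pgf, Flt4 and Tie1 were floor-level.

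Markers of endothelial cells, the cells that carry most of these receptors, were floor-level only in part. Of 21 measured markers 10 were floor-level, against 42.3% of all probe sets. Among the 10 were the defining Pecam1, Cdh5 and Tie1, with group means of at most 3.01, 3.30 and 2.43. The rest were not floor-level. Among these, group means were 7.47 to 8.28 for Cd34, 5.52 to 6.28 for Eng and 5.06 to 6.42 for Podxl. Emcn, an endothelial sialomucin, averaged 5.60 ± 0.25 at 12 h, 4.27 ± 0.97 at 24 h and 5.06 ± 0.29 at 72 h, against 4.63 ± 0.45 in controls 1 to 3 and 5.02 ± 0.77 in controls 4 to 7, without a call. At 12 h 0 markers rose and 2 fell, at 24 h 0 rose and 1 fell, and at 72 h 0 were called by limma, with 6, 3 and 6 at an unadjusted p under 0.05. The called shares were 9.52%, 4.76% and 0%, against 5.35%, 13.4% and 6.13% of all probe sets. At an unadjusted p under 0.05 the shares of all probe sets were 15.5%, 31.3% and 16.5%. The median differences of the markers were -0.11, -0.10 and -0.11.

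Cldn5, a tight junction protein of endothelium that other junction-forming cells also make, averaged 5.43 ± 0.39 at 12 h, against 6.75 ± 0.55 in controls 4 to 7. It fell by 1.32 at 12 h (limma adjusted p = 0.00997) and by 1.69 at 24 h (adjusted p = 0.00343), and was at -0.86 at 72 h (adjusted p = 0.0906). Vwf, a clotting factor stored in endothelium, fell by 0.63 at 12 h (adjusted p = 0.0475) at a floor-level probe set. The other named markers of that time were not called: Sox18, an endothelial transcription factor, was at -0.80 ± 0.24 (adjusted p = 0.0703), and Icam2, an endothelial adhesion molecule, was at 0.64 ± 0.21 in the opposite direction (adjusted p = 0.0995). The summed linear signal of the list was 670 to 749 at 12 h, 771 to 848 at 72 h and 638 to 1039 in controls 4 to 7, and 376 to 697 at 24 h and 565 to 813 in controls 1 to 3. The part of endothelial content in the receptor values was not tested.

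Markers of other cell types were also called at 12 h. Of 17 measured Sertoli cell markers 4 rose and 3 fell at 12 h, and of 11 measured Leydig cell markers 3 rose and 1 fell. These were 41.2% and 36.4% of the lists, against 5.35% of all probe sets. Only 1 and 2 markers of these lists were floor-level, against 42.3% of all probe sets. The shares are therefore not over probe sets of like level, and the lists were chosen with earlier results of these data known. Median differences at 12 h were -0.00 for the Sertoli list and 0.47 for the Leydig list, against -0.00 for all probe sets. The summed signal of the Sertoli list was 37273 to 43226 at 12 h, against 37680 to 48113 in controls 4 to 7. Inha, the inhibin alpha subunit, rose by 1.87 ± 0.11 at 12 h (limma adjusted p = 6.6e-07) and Dhh, a hedgehog ligand of Sertoli cells, by 0.69 ± 0.15 (adjusted p = 0.0127). Fshr, the FSH receptor, fell by 1.10 (adjusted p = 0.00327) and Cst12, a cystatin, fell by 0.83 (adjusted p = 0.00207). The Leydig list had most calls at 24 h, where 5 of 11 rose and 0 fell, with 6 at an unadjusted p under 0.05. The called share was 45.5%, against 13.4% of all probe sets, and 31.3% of all had an unadjusted p under 0.05. The steroid synthesis genes Cyp17a1, Star and Cyp11a1 rose then by 4.62 ± 0.47, 2.50 ± 0.32 and 4.03 ± 0.84 (adjusted p = 3.06e-05, 0.000176 and 0.00648), and Scarb1, a lipoprotein receptor, by 0.62 ± 0.15 (adjusted p = 0.0138). Already at 12 h Cyp17a1, Star and Cyp11a1 averaged 11.2 ± 0.2, 8.15 ± 0.44 and 5.43 ± 1.03. Controls 4 to 7 averaged 8.38 ± 0.92, 5.61 ± 0.58 and 3.19 ± 0.81 (SD). The summed signal of the Leydig list was 6389 to 8397 at 12 h and 5250 to 5933 at 72 h, against 4535 to 8457 in controls 4 to 7, and 7169 to 9499 at 24 h, against 5252 to 6490 in controls 1 to 3. The Leydig sums at 12 h lay within the range of their controls, and those at 24 h lay above theirs. The part of either cell type in the Vegfa level was not tested.

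Outside the set, the array values most like those of Vegfa 1420909_at, taken as differences from the controls of the same technical set over the 18 arrays, were those of Lss, a sterol synthesis enzyme (Pearson r = 0.91), Lrba (0.90) and Nudt2 (0.89). They were the top 3 of 11310 candidate probe sets with a mean of at least 4. These correlations describe arrays that share groups and technical sets.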

How the data were processed

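Per the labels' protocols, 8 µg of total RNA per testis sample was made into biotin-labelled cRNA for 1-colour MOE430A arrays. The authors deposited 1 table of log2 expression values for 22690 probe sets. Both RMA and GCRMA appear in the submitters' processing notes. Which of the methods made the table, and with which versions, is not given in the sources used here. From the range of values, 1.04 to 15.2, the scale was taken to be log2. The 64 array control probe sets were left out, and no filter was set on low values. Of the 22626 probe sets tested, 20380 had 1 gene symbol, 691 several and 1555 none.

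limma 3.58.1 in R 4.3.3 (lmFit, eBayes, two-sided) fitted a mean for each of 5 groups over all 18 arrays, with 13 residual degrees of freedom. The controls were split by technical set, which equals the set as a block. P values were adjusted by Benjamini-Hochberg over all 22626 probe sets, and calls needed less than 0.05. Precision is limited by the number of arrays. The design text speaks of individual mice at 12 and 72 h, of 3 mice at 24 h and of 7 untreated males.

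All probe sets of the 10 genes were named. So were, from each of 9 other lists (139 genes, 125 measured, by their brightest probe set), up to 4 genes with the lowest p at the time when most of the list was called, 7 genes whatever their values (Pecam1, Cdh5, Tie1, Emcn, Pgf, Flt4, Hif1a), and 3 genes most like each called gene. The genes and lists were chosen with earlier results of these data known. The fit was tested on simulated data, where 145, 111 and 144 of 200 probe sets changed 2-fold were called at 12, 24 and 72 h. False calls numbered 10, 4 and 11. The 200 were drawn from probe sets with a mean above 4. The recovery therefore does not cover dimmer ones such as Vegfa 1420909_at (mean 3.65).

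Replicate numbers partly paired the 24 h arrays with controls 1 to 3 in their deviations from group means (r = 0.12, 0.36 and 0.48, over probe sets with a mean of at least 4), a pairing seen in the data and not stated in the labels. Unlike numbers gave -0.44 to 0.18, and control 1 was closer to 24 h replicate 2 (0.18) than to replicate 1 (0.12). Between 72 h and 12 h the values for like numbers were 0.11, 0.14, -0.01 and 0.07, and the arrays did not pair. Alternatives were all 7 controls as 1 group, each technical set alone, quantile normalisation, a filter on dim probe sets, another variance prior, the replicate number as a block, a floor at 4 and leaving out each array.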

Additional observations from a re-analysis of the deposited data

Results flagged for a closer look

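Vegfa 1420909_at differed between 2 times of treatment: it was -0.93 (log2) at 72 h relative to 12 h, with the test given above. A single array stood apart from the rest of its group, by Dixon's 95% criterion, in 5 of the 45 probe set and group combinations tested (groups of 4). Chance flags about 1 in 20 such groups. Vegfc read 4.66 in control 5, against 3.77 to 3.86 in the other 3 controls of that set. Angpt2 read 3.87 in 12 h replicate 4, against 3.24 to 3.31, and 3.11 in 72 h replicate 4, against 3.25 to 3.27. Flt1 1451756_at read 2.83 in 72 h replicate 2, against 2.62 to 2.66. Vegfb read 4.51 in control 4, where the other controls of the set read 4.46. The gaps of Flt1 and Vegfb are small and stand out only because the remaining arrays bunch so closely.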

How the results depend on the processing

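Of the recomputed differences of single probe sets of the 10 genes, 1745 kept their side of the threshold, 2 calls were lost (both Vegfa 1420909_at with values under 4 set to 4), 23 were gained and 0 called values changed sign. Over all probe sets, 1211, 3023 and 1388 were called at 12, 24 and 72 h, 535 between 72 h and 12 h and 198 for the control-adjusted difference between 24 h and 12 h. With all 7 controls as 1 group these became 8137 at 24 h and 9098 for the control-adjusted difference, and 4 (Vegfb, Nrp2, Angpt1 and a Flt1 probe set), 2 (Nrp1 and Nrp2) and 5 (Vegfa, Vegfb, Kdr, Angpt1 and a Flt1 probe set) of the 15 probe sets were called at 24 h, 72 h and in that difference. Within each technical set alone, 393 were called at 24 h and 2 of the 15 (Nrp1 and Nrp2) at 72 h. Without probe sets of mean under 4, which removes Vegfa, 0 of the 15 were called at 12 h, 1 at 24 h (Nrp2) and 0 between 72 h and 12 h. With values under 4 set to 4, added after seeing the data, 1906 were called at 24 h, 100 in the control-adjusted difference, and 0 of the 15 at 12 h and between 72 h and 12 h. With the replicate block, 2098 were called at 24 h and 324 between 72 h and 12 h, and no call among the 15 changed (Vegfa between 72 h and 12 h, adjusted p = 0.0457). No paired analysis was possible for 12 h and 72 h against controls 4 to 7 because they share only 1 number.

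Leaving out single arrays gave 877 to 1278, 1678 to 3848 and 994 to 1456 calls at 12, 24 and 72 h, 290 to 579 between 72 h and 12 h and 94 to 756 in the control-adjusted difference. Of the 15, it gave 1 to 2, 0 to 1, 0 to 2, 1 to 1 and 0 to 1. Counts moved by more than 1.5 times without control 1 at 24 h (1678) and, between 72 h and 12 h, without 12 h replicate 3 (290), 12 h replicate 4 (328) or 72 h replicate 2 (309). In the control-adjusted difference they did so without 12 h replicate 3 (118) or 4 (94), 24 h replicate 1 (756) or 3 (319), or controls 1 (127), 3 (467), 6 (123) or 7 (123). The cause was not tested.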

Other observations

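Targets of the hypoxia-inducible factors, a group to which Vegfa itself belongs, were called in both directions. Of 17 measured targets other than Vegfa, 4 rose and 1 fell at 12 h, 2 rose and 3 fell at 24 h, and 4 rose and 2 fell at 72 h, or 29.4%, 29.4% and 35.3%, against 5.35%, 13.4% and 6.13% of all probe sets. Of the 17, 2 were floor-level, against 42.3% of all probe sets, so the shares are not over probe sets of like level. This list too was chosen with earlier results of these data known. The targets had median differences of 0.01, 0.15 and 0.15. Ddit4, an inhibitor of mTOR signalling, averaged 8.38 ± 0.23 at 72 h, against 7.39 ± 0.37 in controls 4 to 7 (SD, n = 4 each), a rise of 0.99 ± 0.19 (limma adjusted p = 0.0055). Pfkfb3, which raises a stimulator of glycolysis, rose by 1.09 ± 0.21 (adjusted p = 0.00664). Pgk1, a glycolytic enzyme, rose by 1.48 ± 0.24, and Ndrg1, a stress-responsive gene, fell by 1.53, both at probe sets whose suffix marks probes shared with other transcripts. Ddit4 and Pfkfb3 also rose at 12 h (0.91 and 0.87) and were at 0.15 and 0.03 at 24 h, where neither was called. The differences between the 24 h and 12 h effects, -0.76 and -0.85, were not called (adjusted p = 0.23 and 0.238).

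Markers shared with lymphatic endothelium were few. Of 5 measured, 0, 2 and 1 fell at 12, 24 and 72 h and 0 rose, with 0 at an unadjusted p under 0.05 at 12 h by limma. The called shares were 0%, 40% and 20%, against 5.35%, 13.4% and 6.13% of all probe sets. Reln, a secreted matrix protein, averaged 3.28 ± 0.05 at 24 h, against 5.11 ± 0.89 in controls 1 to 3 (SD, n = 3 each), and fell by 1.84 (adjusted p = 0.00216). Pdpn, a surface glycoprotein of several epithelia as well, fell by 2.29 at 24 h (adjusted p = 0.0447), while Prox1, the defining transcription factor, was floor-level. Lyve1, a hyaluronan receptor of lymphatic endothelium and of some macrophages, was above the floor and not called at 24 h (0.05 ± 0.26, adjusted p = 0.923), and the median difference of the 5 was -0.01.

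Of 11 measured pericyte and vascular smooth muscle markers, 0 were called by limma at 12, 24 or 72 h, with 3, 0 and 2 at an unadjusted p under 0.05. Of all probe sets 5.35%, 13.4% and 6.13% were called, and 15.5%, 31.3% and 16.5% had an unadjusted p under 0.05. Among 13 macrophage markers 1, 1 and 0 fell and 0, 1 and 2 rose. The called shares were 7.69%, 15.4% and 15.4%, against 5.35%, 13.4% and 6.13% of all probe sets. At 72 h the median difference of the 13 was 0.20. The summed linear signal of the list was then 1287 to 1676, against 802 to 1317 in controls 4 to 7. At 24 h Csf1r, the receptor for colony-stimulating factor, fell by 0.73 (limma adjusted p = 0.0274) and Itgam, an integrin chain, rose by 0.16 ± 0.05 at a floor-level probe set (adjusted p = 0.0399). Cd68 and Adgre1 were not called then (0.65 and 0.26, adjusted p = 0.0624 and 0.0846). The 4 measured red blood cell genes were all floor-level, with none called.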
